A study of Mus musculus with 39 samples.

Results

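Among 8 mouse livers labelled as hypoxia at 2 hours, the mRNA of Lcn2, the secreted iron-siderophore binding protein lipocalin 2, was either very high or very low. The 2 groups were chosen by the log2 intensity of Lcn2 in these same 8 arrays and by nothing else. In 5 livers (replicates 3, 4, 6, 7 and 8) the log2 intensity of the Lcn2 probe set was above 11, and in 3 livers (replicates 1, 2 and 5) it was below 8. These 8 arrays are part of 39 in the series, which also holds 8 vehicle livers, 8 hypoxic and 8 vehicle spleens, and 4 hypoxic and 3 vehicle bone marrows. The series is titled for reduced oxygen. All animals were B6C3F1 mice sampled at 2 hours, and all tissues were harvested under ketamine and acepromazine anaesthesia, hypoxic and vehicle animals alike. The vehicle livers are labelled as controls; what the vehicle was, the oxygen level, and the animals' age and sex are not given in the sources used here. Tissue of the left lateral lobe was profiled on Affymetrix arrays, so every value is an average over all cells of the piece, and fewer cells of a type cannot be told apart from less RNA per cell.

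The acute phase response is the change in hepatic secretion that follows infection or injury. Cytokines of the interleukin-1 and interleukin-6 families act on hepatocytes through NF-kappaB, STAT3 and C/EBP transcription factors, and serum amyloid A, alpha-1-acid glycoproteins, lipopolysaccharide-binding protein and Lcn2 itself are among its products. NF-kappaB is held in the cytoplasm by IkappaB proteins, and several of its early targets, such as Nfkbia and Tnfaip3, code for its own inhibitors.

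Lcn2 chose the groups, so its levels are given as a description only. The log2 intensity of Lcn2 was 13.81, 11.83, 13.81, 13.00 and 13.33 in the Lcn2-high livers (replicates 3, 4, 6, 7 and 8), and 7.15, 7.08 and 7.07 in the Lcn2-low livers (replicates 1, 2 and 5). No hypoxic liver lay between 7.15 and 11.83, the values just outside and just inside the division. Vehicle livers had 7.95, 7.31, 8.57 and 9.91 in replicates 1 to 4, and 6.90, 6.35, 6.20 and 6.03 in replicates 5 to 8. All 8 vehicle livers were thus below every Lcn2-high liver, and replicates 1 to 4 of the vehicle livers were above every Lcn2-low liver. Replicates 1 to 4 and 5 to 8 also stood apart in a technical measure, the 30th percentile of log2 intensity (4.16 to 4.23 against 4.28 to 4.31, hypoxic and vehicle livers together). Both the Lcn2-high and the Lcn2-low livers include arrays from each of these replicate ranges.

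Of 12734 genes above the dimmest 30 percent, Lcn2 left out, 54 were higher in every Lcn2-high liver than in every Lcn2-low liver with group means at least 2-fold apart (0.424% of genes), and 13 were lower on the same terms (0.102%). Without the size limit, 499 genes (3.92%) were higher with no overlap and 366 (2.87%) lower. The genes follow from a division made on these same arrays, so the differences carry no test. The median difference over all genes was -0.02. Each of the 54 upward genes kept its direction among replicates 1 to 4 and among replicates 5 to 8. The rule of no overlap fixes this in advance, since both ranges hold arrays of each group. Within the Lcn2-high livers, replicate 3 had the highest value for 38 of the 54 genes and replicate 6 for 13, while replicate 4 had the lowest for 41.

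The 3 largest differences belonged to acute phase genes. All 30 acute phase genes matched on the array passed the filter on dim genes. In the Lcn2-high livers 22 of the 30 were higher without overlap, 11 of them at least 2-fold, and none was lower. Over all genes 3.92% were higher without overlap, and 0.424% were so by at least 2-fold. The list's median difference was 0.56. The other 11 genes without overlap differed by 0.10 to 0.77, and 8 overlapped. Among the 8 was Il1rn, the interleukin-1 receptor antagonist, whose brightest probe set differed by 0.41, while a dimmer one differed by 1.54 without overlap.

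Orm2, an alpha-1-acid glycoprotein, showed the largest difference. Its log2 intensity was 13.48, 11.02, 14.02, 12.83 and 13.34 in the Lcn2-high livers, 7.49, 7.22 and 8.09 in the Lcn2-low livers, and 6.65 to 10.19 with a median of 7.68 in vehicle livers. The Lcn2-high mean was 40.5-fold the Lcn2-low mean, and the lowest Lcn2-high array, replicate 4, still exceeded every vehicle liver. Orm3 of the same family had 8.17, 6.16, 8.98, 7.27 and 7.56 in the Lcn2-high livers and 5.38, 5.65 and 5.63 in the Lcn2-low livers, with a vehicle range of 5.27 to 5.80. Orm1, the bright member, differed by only 0.77, with 14.07 to 14.65 in the Lcn2-high livers and 13.63 to 13.73 in the Lcn2-low livers.

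Serum amyloid A genes code for apolipoproteins of the acute phase. Saa2 had 14.73, 13.89, 14.81, 14.60 and 14.65 in the Lcn2-high livers, 9.72, 10.11 and 11.50 in the Lcn2-low livers, and 8.93 to 13.36 with a median of 10.81 in vehicle livers. Saa3 had 12.59, 10.11, 13.22, 11.42 and 12.61 in the Lcn2-high livers, 7.68, 8.55 and 8.01 in the Lcn2-low livers, and 7.21 to 9.29 in vehicle livers. For both genes replicate 4 was the lowest of the Lcn2-high livers and still above all others, vehicle livers included. Saa1 had 14.16 to 14.82 in the Lcn2-high livers and 11.98 to 13.47 in the Lcn2-low livers, a mean difference of 2.07. Saa4, the constitutive family member, differed by 0.51. Saa1 and Saa2 are near-identical in sequence, as are the Orm genes to one another in large part, so their probe sets can share signal.

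Steap4, a metalloreductase, had 13.14, 11.67, 12.68, 12.84 and 11.83 in the Lcn2-high livers and 9.97, 9.90 and 9.84 in the Lcn2-low livers, with vehicle livers at 9.68 to 10.40. Lbp, which carries lipopolysaccharide to CD14, was 3.21-fold higher in the Lcn2-high livers, at 11.91 to 13.13 against 10.79 to 11.40 in the Lcn2-low livers. Cd14, the lipopolysaccharide co-receptor, had 9.10, 6.94, 9.04, 7.54 and 7.62 in the Lcn2-high livers, against 5.58, 5.99 and 6.37 in the Lcn2-low livers. In all 3 genes replicate 4 had a lower value than the other Lcn2-high livers and remained above the Lcn2-low livers. The protease inhibitor Serpina3n (2.82-fold), serum amyloid P component Apcs (2.64-fold) and the leucine-rich glycoprotein Lrg1 (2.20-fold) complete the 11. For all 11, every vehicle liver was below every Lcn2-high liver.

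**Figure D1:**
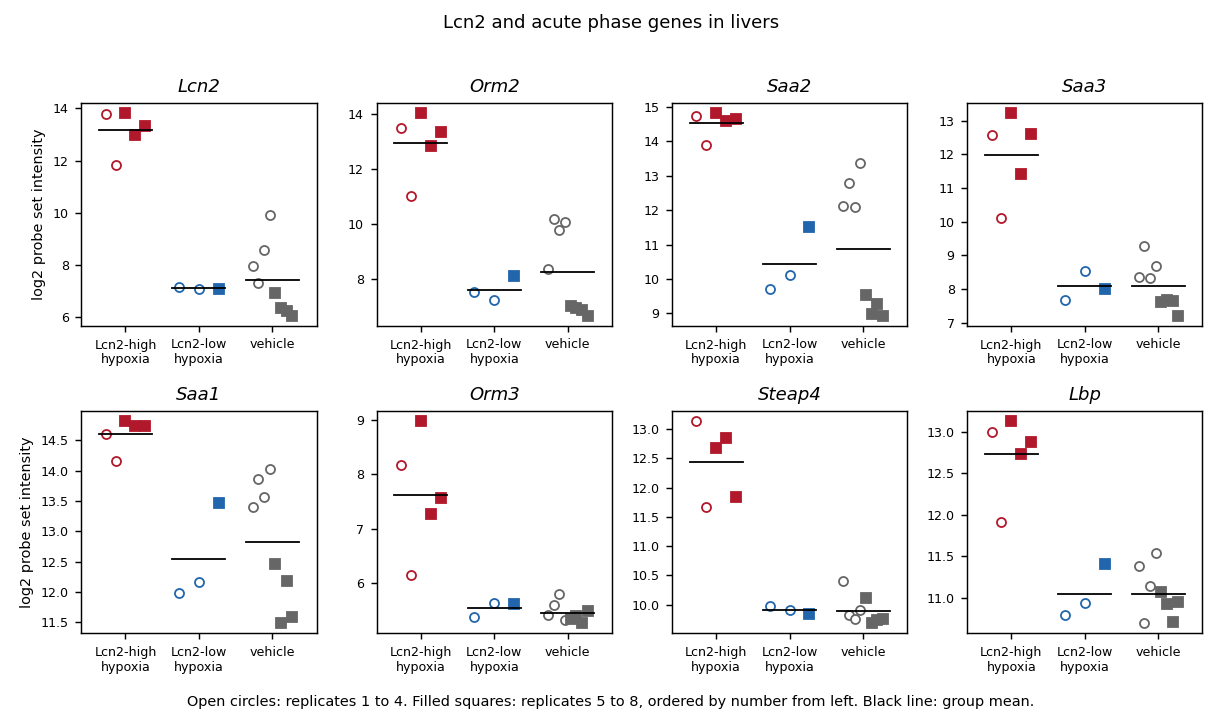
Log2 probe set intensity of Lcn2 and 7 acute phase genes (vertical axes) in Lcn2-high hypoxic, Lcn2-low hypoxic and vehicle livers, 1 point per array; open circles are replicates 1 to 4, filled squares replicates 5 to 8, and black lines group means. The Lcn2-high livers lie above all other livers in every panel, and for Orm2 and Saa2 the vehicle livers fall into a higher set (replicates 1 to 4) and a lower set (replicates 5 to 8).

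Other acute phase genes differed little across the division. Hp, haptoglobin, had 14.63 to 14.87 in the Lcn2-high livers and 14.22 to 14.46 in the Lcn2-low livers. Hpx, hemopexin, differed by 0.37, and the fibrinogen chains Fga and Fgg by 0.10 and 0.18. Hamp, the iron hormone hepcidin and an interleukin-6 target, had 12.79, 13.35, 13.33, 12.91 and 12.33 in the Lcn2-high livers and 13.19, 12.51 and 13.34 in the Lcn2-low livers. Hamp therefore overlapped fully between the groups, with a mean difference of -0.07.

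The promoters of 4 of the 11 acute phase genes apart by 2-fold are shown because each holds a C/EBP pattern. Of the others, Orm3 and Saa1 also hold a C/EBP match. The windows of Serpina3n, Apcs and Lrg1 hold no C/EBP and no kappaB match, so the pattern is not common to all 11. Windows run from 250 bases before to 50 bases after the start site, 5′ to 3′ on the gene's strand, from RefSeq on GRCm38.p6. Capitals mark matches on either strand to the C/EBP pattern TTGCNNAA, the STAT3 pattern TTCNNNGAA or the kappaB consensus.
Orm2, chr4:63362199-63362498, plus strand: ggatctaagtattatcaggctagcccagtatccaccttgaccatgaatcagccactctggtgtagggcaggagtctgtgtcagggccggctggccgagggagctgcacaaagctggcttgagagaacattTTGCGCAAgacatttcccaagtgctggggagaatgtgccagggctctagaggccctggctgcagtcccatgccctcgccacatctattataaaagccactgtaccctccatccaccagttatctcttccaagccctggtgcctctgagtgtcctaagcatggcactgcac
Saa2, chr7:46751583-46751882, plus strand: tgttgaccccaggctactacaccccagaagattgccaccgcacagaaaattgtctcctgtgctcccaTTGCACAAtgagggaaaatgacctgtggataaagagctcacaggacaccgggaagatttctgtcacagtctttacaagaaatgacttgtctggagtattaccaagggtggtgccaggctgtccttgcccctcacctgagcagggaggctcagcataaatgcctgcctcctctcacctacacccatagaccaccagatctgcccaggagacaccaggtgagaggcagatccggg
Saa3, chr7:46715627-46715926, minus strand: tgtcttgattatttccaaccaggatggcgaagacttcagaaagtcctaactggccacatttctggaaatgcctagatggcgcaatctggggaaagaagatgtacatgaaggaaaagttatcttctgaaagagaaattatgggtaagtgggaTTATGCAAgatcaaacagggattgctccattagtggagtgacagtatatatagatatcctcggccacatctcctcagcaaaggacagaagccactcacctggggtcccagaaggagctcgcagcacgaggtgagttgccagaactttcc
Steap4, chr5:7960222-7960521, plus strand: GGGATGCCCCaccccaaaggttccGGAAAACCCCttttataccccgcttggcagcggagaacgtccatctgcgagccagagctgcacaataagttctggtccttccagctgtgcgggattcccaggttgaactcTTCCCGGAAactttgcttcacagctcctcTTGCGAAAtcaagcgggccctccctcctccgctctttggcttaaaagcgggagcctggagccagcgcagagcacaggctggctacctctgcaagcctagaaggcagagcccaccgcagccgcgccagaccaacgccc
The C/EBP match began at -120 in Orm2, -183 in Saa2, -99 in Saa3 and -87 in Steap4, counted from the start site. Steap4 also held 2 kappaB matches and 1 STAT3 match, at -116. RefSeq windows were found for 42 of the 54 upward genes, 50 windows in all. The C/EBP pattern was in 22.0% of these windows, against 10.8% of all 32851 windows. The kappaB consensus was in 7 of the 50, against 4.51% of all windows, and the STAT3 pattern in 4 of the 50, against 8.3%. These shares describe letters in a window and do not show binding.

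A few regulators of NF-kappaB were apart across the division. Of 25 subunits, inhibitors and kinases on the array 21 passed the filter. Of these, 3 were higher without overlap and at least 2-fold, beside 0.424% of all genes. At any size 5 of the 21 were higher without overlap, beside 3.92% of all genes, and none was lower. The list's median difference was 0.11. Tifa, an adaptor that activates TRAF6, had 10.52, 8.05, 9.19, 8.36 and 8.45 in the Lcn2-high livers, 7.08, 6.27 and 6.77 in the Lcn2-low livers, and 6.85 to 8.21 in vehicle livers. Vehicle livers 3 and 4 thus overlapped the Lcn2-high range for Tifa. Nfkbiz, the nuclear protein IkappaB-zeta, which acts with NF-kappaB at a subset of its targets, had 9.73, 8.00, 9.23, 8.01 and 7.81 in the Lcn2-high livers and 6.75, 7.02 and 6.49 in the Lcn2-low livers. Vehicle livers had 5.94 to 7.15 for Nfkbiz, below every Lcn2-high liver. Tnfaip3, the inhibitor A20, had 7.63, 6.22, 6.46, 6.39 and 6.45 in the Lcn2-high livers, against 5.44, 5.32 and 5.78 in the Lcn2-low livers. A dimmer Tnfaip3 probe set differed by only 0.16 and overlapped.

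Nfkbia, IkappaB-alpha and a textbook early target of NF-kappaB, was not higher in the Lcn2-high livers. Its brightest probe set had 11.29, 11.54, 11.78, 11.51 and 11.69 in the Lcn2-high livers and 11.74, 11.65 and 11.92 in the Lcn2-low livers, against 10.91 to 11.27 in vehicle livers. On this probe set the hypoxic groups overlapped and both stood above the vehicle livers. Of its 4 dimmer probe sets all differed downward, and 2 (-0.33 and -0.39) were lower in every Lcn2-high than in every Lcn2-low liver; in the second of these Lcn2-high replicate 3, at 9.01, lay within the vehicle range, which reached 9.20. Nfkbia rose with hypoxia by 0.56 ± 0.09 (log2 change ± SE, limma adjusted p = 0.000202). Of 21 NF-kappaB target genes that passed the filter (of 28 matched), none was separated by 2-fold, beside 0.424% of all genes. At any size 1 was higher without overlap, beside 3.92% of all genes, and none was lower. At these shares a list of 21 can hold none, so nothing is read from the count. The list's median difference was 0.14. Nfkbiz and Tnfaip3 were counted with the regulators above and not in this list. Icam1, an endothelial adhesion molecule, had 8.91 in replicate 3 and 6.48 to 7.02 in the other Lcn2-high livers, against 6.37 to 6.48 in the Lcn2-low livers. Bcl3, a nuclear IkappaB protein, had 10.04 in replicate 3, 7.81 to 8.71 in the other Lcn2-high livers, and 8.01 to 8.59 in the Lcn2-low livers.

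Replicate 3 also had the highest value of the STAT3 feedback inhibitor Socs3, 9.33, against 6.15 to 7.22 in the other Lcn2-high livers and 4.75 to 6.38 in the Lcn2-low livers. For Junb, an AP-1 subunit, it had 9.73, against 7.04 to 7.83 in the other Lcn2-high livers and 6.29 to 7.12 in the Lcn2-low livers. Replicate 6, whose Lcn2 was at the same 13.81 as replicate 3, was the highest of all for Orm2, Saa3, Orm3, S100a8 and Prtn3, yet had 6.91 for Socs3 and 7.81 for Bcl3. Of the 11 acute phase genes apart by 2-fold, 6 were highest in replicate 6 and 5 (Steap4, Cd14, Serpina3n, Apcs and Lrg1) in replicate 3.

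**Figure D2:**
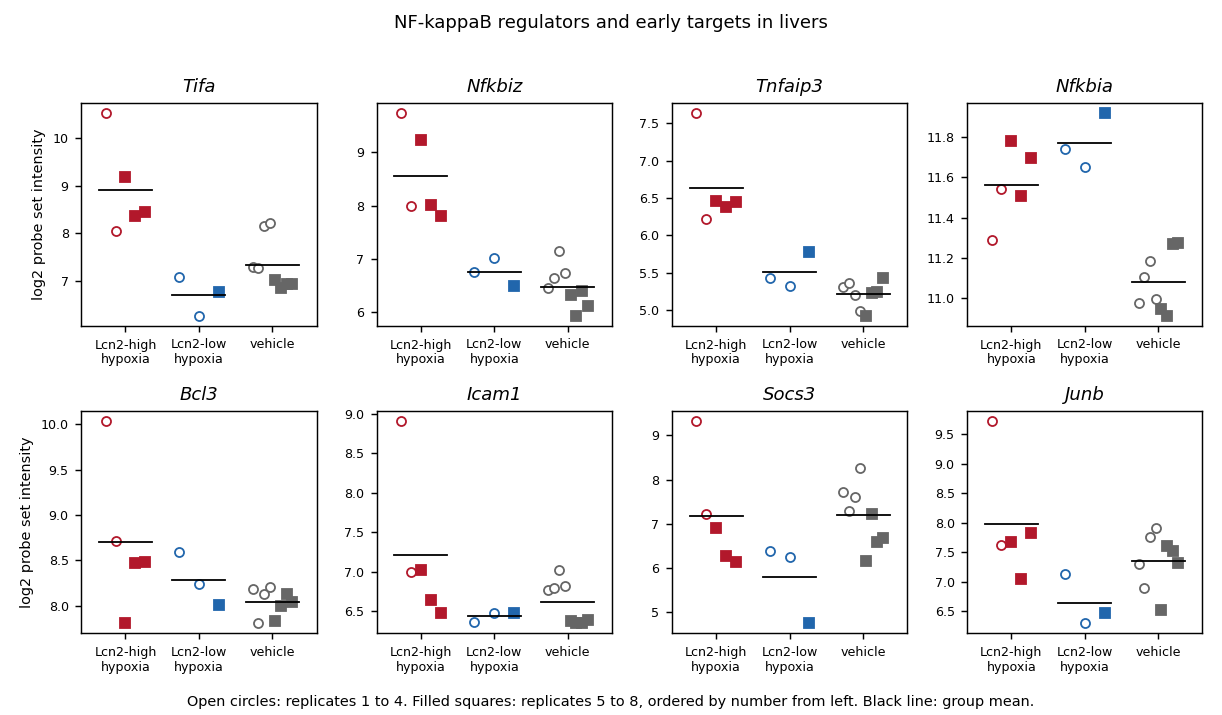
Log2 probe set intensity of 8 genes (vertical axes) in Lcn2-high hypoxic, Lcn2-low hypoxic and vehicle livers, 1 point per array. They are NF-kappaB regulators and targets, with the STAT3 feedback inhibitor Socs3 and the AP-1 subunit Junb. Open circles are replicates 1 to 4, filled squares replicates 5 to 8, and black lines group means. Tifa, Nfkbiz and Tnfaip3 do not overlap between the hypoxic groups, Nfkbia is high in both, and a single Lcn2-high liver, replicate 3, is far above the others for Bcl3, Icam1, Socs3 and Junb.

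Promoters of Tnfaip3 and Tlr2 are shown because each holds more than 1 kappaB match; windows and capitals are as above.
Tnfaip3, chr10:19015361-19015660, minus strand: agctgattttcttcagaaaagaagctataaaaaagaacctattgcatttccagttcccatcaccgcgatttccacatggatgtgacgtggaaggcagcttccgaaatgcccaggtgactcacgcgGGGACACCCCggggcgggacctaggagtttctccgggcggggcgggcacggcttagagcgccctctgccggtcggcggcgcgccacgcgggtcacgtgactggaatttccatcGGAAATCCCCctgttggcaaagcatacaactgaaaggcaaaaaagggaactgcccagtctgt
Tlr2, chr3:83841559-83841858, minus strand: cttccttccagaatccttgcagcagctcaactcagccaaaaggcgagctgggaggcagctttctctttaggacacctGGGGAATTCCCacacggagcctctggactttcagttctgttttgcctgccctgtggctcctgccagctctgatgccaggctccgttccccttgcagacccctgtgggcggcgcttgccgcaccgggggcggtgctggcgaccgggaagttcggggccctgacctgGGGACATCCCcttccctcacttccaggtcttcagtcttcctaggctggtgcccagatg
Tnfaip3 has another RefSeq window with no match to any of the 3 motifs. In Tlr2, 2 of the 3 kappaB matches overlap.

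Transcripts of the cytokines that drive this response in the textbook account showed no division. Il6 did not pass the filter, at 3.15 to 3.69 in the Lcn2-high livers and 3.29 to 3.35 in the Lcn2-low livers. Tnf had 5.85 to 6.07 in the Lcn2-high livers and 5.78 to 5.99 in the Lcn2-low livers, and Il1b 5.22 to 5.85 in the Lcn2-high livers and 5.29 to 5.86 in the Lcn2-low livers. These ranges overlap, which does not show that the levels were equal. Of the 30 cytokines and chemokines matched, 24 had a mean below the median gene in liver, so this list was mostly dim. Of 18 cytokines and chemokines that passed (of 30 matched), 1 was separated upward, beside 0.424% of all genes. This was the chemokine Cxcl14, which had 9.36, 6.19, 6.57, 5.40 and 8.57 in the Lcn2-high livers, against 4.96 at most in the Lcn2-low livers. Vehicle livers had 4.44 to 6.26 for Cxcl14 and so overlapped the Lcn2-high range. The neutrophil chemokine Cxcl1 had 9.25 and 9.18 in replicates 3 and 6 and 7.45 to 7.72 in the other Lcn2-high livers, against 7.24 to 7.62 in the Lcn2-low livers. The vehicle range of Cxcl1 was 7.96 to 8.36, so that all 3 Lcn2-low livers and replicates 4, 7 and 8 of the Lcn2-high livers lay below it.

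Among receptors, 24 of 27 matched genes passed the filter, 6 were higher without overlap and 1 was lower, beside 3.92% and 2.87% of all genes, with a median difference of 0.19. Tlr2, a receptor for bacterial lipoproteins, had 7.22, 5.31, 6.22, 7.08 and 5.80 in the Lcn2-high livers, against 4.84, 4.38 and 4.55 in the Lcn2-low livers and 4.36 to 5.07 in vehicle livers. Outside the Lcn2-high livers Tlr2 was dim, and it can have passed the filter through those livers alone. Il1r1, the signalling interleukin-1 receptor, had 10.72 to 11.40 in the Lcn2-high livers, 9.57 to 10.52 in the Lcn2-low livers, and 8.65 to 9.48 in vehicle livers. For Il1r1 the Lcn2-low livers too stood above every vehicle liver, and it rose with hypoxia over all 8 livers (limma adjusted p = 2.67e-05). Tnfrsf1a, a tumour necrosis factor receptor, differed by 0.60, and Il6st, the shared signalling chain of the interleukin-6 family, by 0.45. In the STAT3 and C/EBP list (23 of 24 passed, median difference 0.09), Stat3 itself differed by 0.74 without overlap, and Fgl1, a hepatokine induced by interleukin-6, by 1.49, at 13.24 to 13.93 in the Lcn2-high livers and 11.76 to 12.42 in the Lcn2-low livers. A dim Stat3 probe set differed by -0.07.

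**Figure D3:**
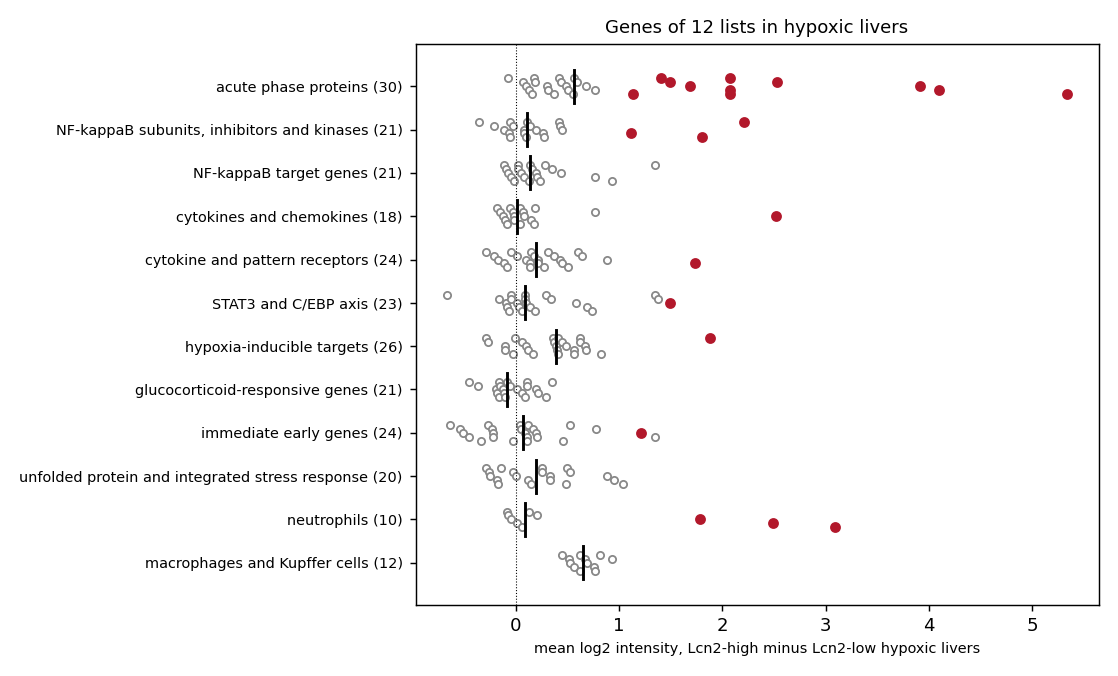
Difference of mean log2 intensity, Lcn2-high minus Lcn2-low hypoxic livers (horizontal axis), for each gene of 12 lists that passed the filter on dim genes; the number in brackets is how many passed, black bars are medians, and filled red points are genes with no overlap and at least a 2-fold difference. Acute phase proteins hold 11 of the red points and a median of 0.56, while NF-kappaB target genes (median 0.14), glucocorticoid-responsive genes (-0.08) and macrophage genes (0.65) hold none. Over all genes 0.424% were so divided upward and 0.102% downward, so nothing is read from a list of this size without a red point.

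The largest upward genes outside these lists were Dnajc12, a J-domain cochaperone (2.67), Atp11a, a phospholipid flippase (1.93), and Acnat2, an acyl-CoA amino acid N-acyltransferase (1.86). Dnajc12 had 12.36, 10.37, 12.42, 11.26 and 12.17 in the Lcn2-high livers, against 8.96 to 9.18 in the Lcn2-low livers and 8.92 to 9.42 in vehicle livers. For this gene the Lcn2-low livers lay inside the vehicle range, and all Lcn2-high livers lay above it.

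Among the 13 genes lower in the Lcn2-high livers, the 10 largest with a standard gene symbol are described here, which passes over 9130409I23Rik (-1.67), the second by size. Gsta2, a glutathione S-transferase, had 8.24, 8.78, 6.55, 8.45 and 7.47 in the Lcn2-high livers, against 10.18, 10.28 and 9.85 in the Lcn2-low livers and a vehicle median of 9.64. Inmt, an indolethylamine N-methyltransferase, had 10.03, 11.27, 10.08, 11.04 and 9.79 in the Lcn2-high livers and 11.81 to 12.01 in the Lcn2-low livers. In both genes all 8 vehicle livers were above every Lcn2-high liver. Carboxylesterases Ces1e, Ces1d and Ces2b differed by -1.30, -1.17 and -1.11, the cytochrome Cyp2c55 by -1.44, the retinol dehydrogenase Rdh16 by -1.12, the phospholyase Etnppl by -1.09 and the transcript Hectd2os by -1.16. A dimmer Etnppl probe set differed by 0.02. Hhex, a homeobox factor of hepatocytes, had 7.41 to 7.90 in the Lcn2-high livers, 8.70 to 9.11 in the Lcn2-low livers and 8.91 to 10.71 in vehicle livers, and it fell with hypoxia by 1.74 on the log2 scale (limma adjusted p = 0.000125). Replicate 4 had the highest value among the Lcn2-high livers for 9 of the 13 downward genes.

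The response to hypoxia itself was present on both sides of the division. Over all hypoxic and vehicle livers, limma called 494 genes higher (3.88% of 12735) and 919 lower (7.22%) in hypoxic livers at an adjusted p under 0.05. With the replicate number as a block it called 748 higher and 1637 lower, within replicates 1 to 4 it called 302 and 457, and within replicates 5 to 8 it called 588 and 1331. Ddit4, a hypoxia-induced inhibitor of mTORC1, had 11.81, 11.09, 12.09, 11.66 and 12.06 in the Lcn2-high livers, 11.10, 10.71 and 11.54 in the Lcn2-low livers, and 5.78 to 7.21 in vehicle livers. Igfbp1, an insulin-like growth factor binding protein, had 13.85 to 14.28 in the Lcn2-high livers, 13.98 to 14.06 in the Lcn2-low livers and 10.36 to 11.72 in vehicle livers. All hypoxic livers exceeded all vehicle livers for both genes, and the hypoxic groups overlapped. Ddit4 rose by 4.84 ± 0.21 (adjusted p = 7.71e-12, limma) and Igfbp1 by 2.93 ± 0.18 (adjusted p = 1.09e-09, limma).

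Of 26 hypoxia-inducible targets that passed, limma called 14 higher and none lower with hypoxia, beside 3.88% and 7.22% of all genes. Between the hypoxic groups 8 of the 26 were higher without overlap, beside 3.92% of all genes, by amounts below 2-fold except for Ankrd37, an ankyrin repeat protein induced by HIF-1. Ankrd37 had 8.38, 7.82, 6.96, 7.79 and 7.64 in the Lcn2-high livers, 6.02, 5.88 and 5.61 in the Lcn2-low livers, and 4.12 to 4.56 in vehicle livers, an ordered set with no overlap at any step. The list's median difference between hypoxic groups was 0.39. Vegfa differed by 0.41, Bnip3, a mitophagy receptor, by 0.40 with overlap, and Bhlhe40, a clock-linked repressor, by 0.68. Ldha, lactate dehydrogenase A, had 13.00 to 13.46 in the Lcn2-high livers, 12.52 to 12.89 in the Lcn2-low livers and 12.40 to 12.75 in vehicle livers, so that only the Lcn2-high livers lay wholly above the vehicle range.

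Glucocorticoid-responsive genes mostly overlapped between the hypoxic groups. Of 21 that passed, limma called 13 higher and none lower with hypoxia, beside 3.88% and 7.22% of all genes. Between the hypoxic groups 1 was higher and 1 lower without overlap, near the 3.92% and 2.87% of all genes, with a median difference of -0.08. Sgk1, a serum- and glucocorticoid-induced kinase, had 9.86 to 10.38 in the Lcn2-high livers, 9.96 to 10.60 in the Lcn2-low livers and 7.47 to 8.26 in vehicle livers. Cebpd, a C/EBP factor, had 8.53 to 9.01 in the Lcn2-high livers and 8.31 to 8.51 in the Lcn2-low livers, and both lay above the vehicle range of 5.63 to 6.80. Mt2, a metallothionein induced by zinc, glucocorticoids and interleukin-6, had 13.90, 13.14, 13.83, 13.87 and 13.83 in the Lcn2-high livers, 13.27, 13.28 and 12.45 in the Lcn2-low livers, and 7.07 to 11.28 in vehicle livers. Btg2, an antiproliferative early gene, rose with hypoxia by 2.90 ± 0.24 (limma adjusted p = 9.72e-08) and was also 2.32-fold higher in the Lcn2-high than in the Lcn2-low livers. Of 20 unfolded protein and integrated stress response genes, 6 endoplasmic reticulum genes were higher without overlap in the Lcn2-high livers, beside 3.92% of all genes, among them the chaperone partner Sdf2l1 (0.95), Creld2 (0.89) and the disulfide isomerase Pdia4 (0.53), none by 2-fold.

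**Figure D4:**
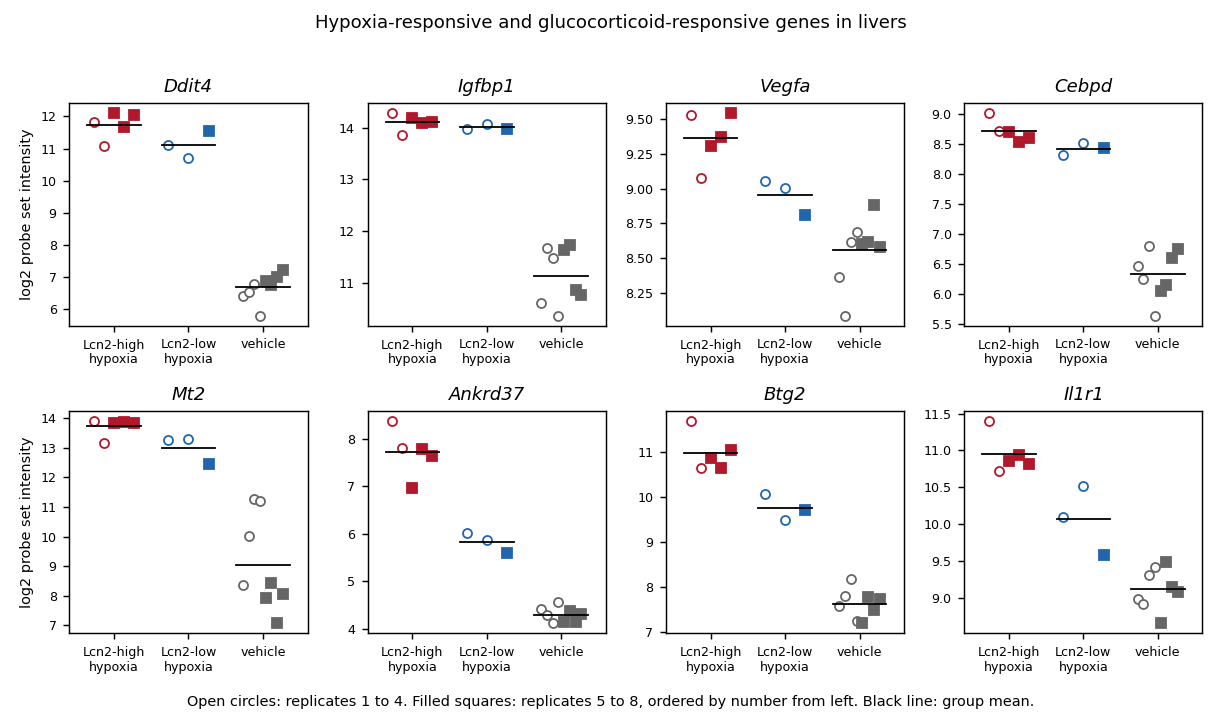
Log2 probe set intensity of 8 genes that were higher in hypoxic than in vehicle livers (vertical axes), in Lcn2-high hypoxic, Lcn2-low hypoxic and vehicle livers, 1 point per array; open circles are replicates 1 to 4, filled squares replicates 5 to 8, and black lines group means. Both hypoxic groups are above the vehicle livers in every panel except Vegfa, where replicate 5 of the Lcn2-low livers, at 8.81, lies within the vehicle range, and the hypoxic groups are apart for Ankrd37, Btg2, Il1r1, Vegfa and Cebpd and overlap for Ddit4, Igfbp1 and Mt2.

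The vehicle livers stood with the Lcn2-low livers for most divided genes. Of the 54 upward genes, 42 had all 8 vehicle livers below every Lcn2-high liver and 52 had a vehicle mean nearer to the Lcn2-low mean. Of the 13 downward genes, 12 had a vehicle mean nearer to the Lcn2-low mean. Limma called 28 of the 54 higher and none lower in hypoxic than in vehicle livers, beside 3.88% of all genes called higher. The same hypoxic arrays define the 54 genes, so nothing is read from that count. Of the 30 acute phase genes limma called 7 higher and none lower with hypoxia, beside 3.88% and 7.22% of all genes. The Lcn2-high livers are among these hypoxic arrays, so nothing about the division is read from that count either. Among the 7 were Steap4 (1.59 ± 0.43, adjusted p = 0.0211, limma) and Serpina3n (1.09 ± 0.26, adjusted p = 0.0102, limma). Orm2 (2.71 ± 1.00, adjusted p = 0.0891, limma) and Saa2 (2.12 ± 0.87, adjusted p = 0.132, limma), the 2 with the largest division, did not pass. Without hypoxic replicate 1, an Lcn2-low liver, both did (limma adjusted p = 0.0358 for Orm2 and 0.0476 for Saa2), and Orm2 also did without the Lcn2-low replicates 2 or 5 (limma adjusted p = 0.0324 and 0.0468). Both passed within replicates 5 to 8 (limma adjusted p = 0.0113 for Orm2 and 0.00127 for Saa2) and neither within replicates 1 to 4 (0.945 and 0.838). Within replicates 1 to 4 neither Steap4 (1.20, adjusted p = 0.292, limma) nor Serpina3n (0.84, adjusted p = 0.296, limma) passed, and with a robust variance prior Steap4 had an adjusted p of 0.0506 (limma).

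Vehicle livers were not uniform. For Orm2, vehicle replicates 1 to 4 had 8.35, 10.19, 9.76 and 10.05, and replicates 5 to 8 had 7.01, 6.92, 6.87 and 6.65. For Saa2, vehicle replicates 1 to 4 had 12.11, 12.79, 12.09 and 13.36, all above the Lcn2-low livers 1 and 2 at 9.72 and 10.11, and replicates 5 to 8 had 9.53, 8.99, 9.26 and 8.93. The same vehicle livers were apart in the 3′ minus 5′ signal of Actb, a measure of RNA integrity, at 0.953 to 1.55 in replicates 1 to 4 and 0.572 to 0.691 in replicates 5 to 8; its part in these values was not tested. In replicates 1 to 4, therefore, vehicle livers lay between the Lcn2-high and the Lcn2-low livers for these genes. The hypoxia minus vehicle change of Saa1 was -0.49 within replicates 1 to 4 and 2.51 within replicates 5 to 8, and that of Saa2 -0.48 and 4.71. The difference between the ranges, replicates 5 to 8 minus replicates 1 to 4, did not pass for Saa1 (3.00 ± 0.68, limma adjusted p = 0.341), and limma called 0 of 12735 genes for it, with 1272 at an unadjusted p under 0.05. Of the 54 upward genes, 15 (27.8%) had vehicle livers 1 to 4 all above vehicle livers 5 to 8, beside 21.1% of all genes.

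Lcn2 among vehicle livers was used by no step of the division, so its relation to other genes there could be tested, within the limit that it differs wholly by replicate range. Limma called 11 genes (0.0864% of 12734) whose level followed Lcn2 over the 8 vehicle livers, all with positive slopes. Fgl1 had a slope of 0.37 ± 0.05 per log2 unit of Lcn2 and Tifa of 0.38 ± 0.05 (limma adjusted p = 0.0277 for each). The others of smallest p were Nceh1 (0.35), Rnf24 (0.28), Gprin3 (0.24) and C77080 (0.23). Fgl1, Tifa, Cyb561 and Scara5, the last 2 named after their values were seen, are also among the 54 genes, which is 36.4% of the 11 and 7.41% of the 54. With the replicate range as a term, 0 genes passed in limma, with 844 at an unadjusted p under 0.05, and without vehicle replicate 4 the count was 1508.

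Over 25 named genes, Pearson correlation with Lcn2 across the 8 vehicle livers passed for 10 in an exact two-sided permutation test adjusted over the 25. Hp had r = 0.963 (adjusted p = 0.00248) and rho = 0.929 (adjusted p = 0.0558), both by exact permutation. Its r was 0.950 without the 2 livers farthest from the median Lcn2, and 0.885 with the mean of each replicate range removed. The permutation for this last r shuffled all 8 livers across the ranges, so its adjusted p of 0.00496 is not exact and can be too small. Saa2 had r = 0.874 and rho = 0.881 (exact permutation adjusted p = 0.0321 and 0.0605), with r = 0.871 without the farthest 2 and 0.57 with the range means removed. Of the 10, none passed by rho or without the farthest 2. With the range means removed only Hp passed, by the permutation that is not exact.

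Markers of other cell types followed the division in part. Of 13 neutrophil genes matched, 10 passed the filter, and the list's median difference was 0.09. Of the 10, 3 were higher without overlap and at least 2-fold, beside 0.424% of all genes. The filter's mean includes the Lcn2-high livers, so a dim gene can pass through them alone, and nothing is read from this count. S100a8, a calprotectin subunit, had 8.25, 5.69, 8.49, 6.99 and 6.68 in the Lcn2-high livers, against 4.59, 4.79 and 4.81 in the Lcn2-low livers and 4.09 to 4.82 in vehicle livers. Outside the Lcn2-high livers S100a8 was thus dim, with means of 4.73 in Lcn2-low and 4.48 in vehicle livers. Prtn3, a neutrophil granule protease, had 9.40, 7.24, 9.65, 8.58 and 9.49 in the Lcn2-high livers, against 5.13, 6.00 and 6.22 in the Lcn2-low livers and 5.60 to 6.42 in vehicle livers. S100a9, the partner of S100a8, differed by 1.78. The granule genes Elane (5.06 to 5.84 in Lcn2-high and 5.38 to 5.82 in Lcn2-low livers), Ltf (4.72 to 5.51 in Lcn2-high and 4.75 to 5.14 in Lcn2-low livers) and Mpo (4.03 to 5.09 in Lcn2-high and 4.33 to 4.87 in Lcn2-low livers) overlapped between the groups, and Mpo did not pass the filter. The summed linear intensity of the list was 612 to 2053 in the Lcn2-high livers, 472 to 600 in the Lcn2-low livers and 476 to 577 in vehicle livers. The part of neutrophils in the division was not tested.

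All 12 macrophage and Kupffer cell genes passed the filter, with a median difference of 0.65. Of these, 2, Cd163 and Marco, were higher without overlap in the Lcn2-high livers, beside 3.92% of all genes. C1qa, a complement subunit made by macrophages, had 9.65, 8.88, 9.88, 9.81 and 9.71 in the Lcn2-high livers and 8.39, 8.76 and 9.17 in the Lcn2-low livers. Replicate 4 overlapped the Lcn2-low livers for it. The list's summed intensity was 5312 to 11038 in the Lcn2-high livers, 4217 to 6278 in the Lcn2-low livers and 4491 to 8116 in vehicle livers, and its part in the division was not tested. Hepatocyte genes were bright throughout, with the apolipoprotein Apoa1 at 14.83 to 15.02 in the Lcn2-high livers, 14.98 to 15.02 in the Lcn2-low livers and 14.96 to 15.04 in vehicle livers. Of 9 hepatocyte genes 1 was lower without overlap in the Lcn2-high livers, beside 2.87% of all genes. In the list of negative acute phase and hepatocyte function genes, 26 passed, with a median difference of -0.12. Of these 3 were lower and 1 higher without overlap, beside 2.87% and 3.92% of all genes. The 3′ minus 5′ signal of Actb was 0.58 to 0.81 in the Lcn2-high livers, 0.56 to 1.25 in the Lcn2-low livers and 0.57 to 1.55 in vehicle livers, and over hypoxic and vehicle livers together it was 0.709 to 1.55 in replicates 1 to 4 and 0.561 to 0.691 in replicates 5 to 8.

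Hypoxic spleens carry the same replicate numbers, and their values played no part in the division. The labels do not say whether a number marks 1 mouse across tissues, so the comparison concerns numbers. Spleens numbered 3, 4, 6, 7 and 8 had Lcn2 at 11.98, 11.17, 11.59, 10.09 and 10.96, against 7.65 to 9.24 in spleens numbered 1, 2 and 5. The groups did not overlap, and the exact two-sided permutation p was 0.0357, the smallest that 56 arrangements allow. In limma over all spleen genes the change was 2.70 ± 0.43 with an adjusted p of 0.0656. Vehicle spleens had 8.09 to 9.88.

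Limma called 7 of 12735 spleen genes (0.055%), all higher in the numbers of the Lcn2-high livers, and 2293 had an unadjusted p under 0.05. They include Il1b (1.53 ± 0.20) and Chil3, a myeloid chitinase-like protein (2.28 ± 0.31), together with F13a1, F10, Emilin2, Sgms2 and Ppp1r3d. Il1b had 8.96, 8.22, 9.29, 8.74 and 8.80 in spleens 3, 4, 6, 7 and 8, against 7.11, 7.25 and 7.45 in spleens 1, 2 and 5. With the replicate range as a term limma called 0 genes, with 2730 at an unadjusted p under 0.05, and leaving out single spleens gave 0 to 368 calls. The count was 0 without spleen 1, 2, 3, 6 or 8, 2 without spleen 5, 23 without spleen 7 and 368 without spleen 4.

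All 13 neutrophil genes were higher without overlap in spleens 3, 4, 6, 7 and 8 than in spleens 1, 2 and 5, beside 7.57% of all genes. Their median change was 2.20, against -0.02 over all genes, and none of the 13 passed limma's adjusted threshold (adjusted p 0.0568 to 0.204), while all 13 had an unadjusted p under 0.05. Ltf, the granule protein lactoferrin, had 12.19, 11.72, 11.58, 10.43 and 11.16 in spleens 3, 4, 6, 7 and 8, against 9.01, 7.89 and 9.79 in spleens 1, 2 and 5. In spleen, Nfkbiz (0.08 ± 0.23, adjusted p = 0.883, limma) and Tnfaip3 (-0.46 ± 0.22, adjusted p = 0.301, limma) did not pass, and Saa1, Saa2 and Orm2 were below the dim limit. Bone marrow, where Lcn2 is a granule gene of maturing neutrophils, had 14.19 to 14.36 in 4 hypoxic and 14.25 to 14.39 in 3 vehicle samples.

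**Figure D5:**
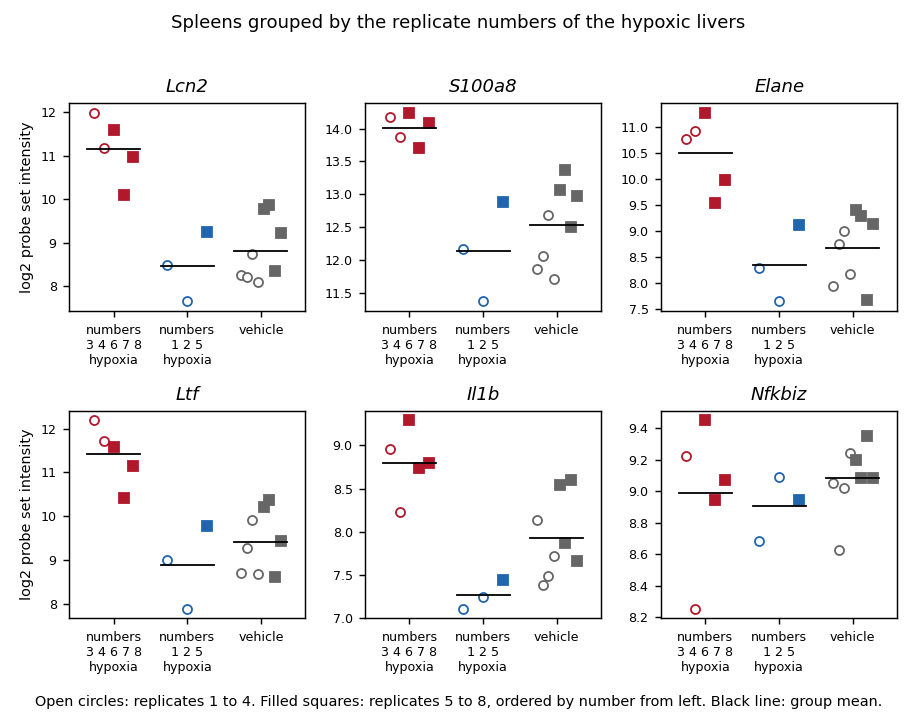
Log2 probe set intensity of 6 genes (vertical axes) in hypoxic spleens numbered as the Lcn2-high livers, hypoxic spleens numbered as the Lcn2-low livers, and vehicle spleens, 1 point per array; open circles are replicates 1 to 4, filled squares replicates 5 to 8, and black lines group means. Lcn2, S100a8, Elane, Ltf and Il1b do not overlap between the hypoxic spleens, whereas Nfkbiz does.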

How the data were processed

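The authors deposited 1 intensity per probe set and array on a linear scale, and RMA and limma are named without versions per the submitters' processing notes; the build and further steps are not given in the sources used here. Values ran from 5.78 to 43800. Of 45101 probe sets, 34958 carry 1 gene symbol, 932 several and 9211 none; only the first kind was used, after 64 control probe sets were removed. Values were log2 transformed with no offset, and the brightest probe set over the 16 liver arrays stood for each of 18193 genes. Genes whose mean lay in the lowest 30 percent were removed, leaving 12735. In liver that mean includes the Lcn2-high arrays, so a gene can pass through them alone. Without this filter 56 genes were divided upward and 13 downward. Array number, not depth, limits the precision.

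Hypoxia was compared with vehicle by limma 3.58.1 (lmFit and eBayes, Benjamini-Hochberg adjustment, R 4.3.3) over 8 against 8 livers, and the relation to Lcn2 by a limma slope and by exact permutation (scipy 1.17.1) over the vehicle livers. The fits were tested on simulated data. The Lcn2-high and Lcn2-low groups received no test because Lcn2 on the same arrays defines them, and no correlation with Lcn2 was computed over the hypoxic livers because they form separate clusters. The spleen comparison was added after the data were seen. Nothing in the labels says that replicates come from separate mice, so p-values measure the spread between these samples. Same-numbered hypoxic and vehicle livers deviated together, with correlations of 0.17 to 0.54 (mean 0.30, against 0.26 for other numbers of the same replicate range), so a fit with the replicate number as a block was run.

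The division, the 25 gene lists and the named genes were chosen with earlier results of these data known. Named genes are the 15 largest separated upward and 10 downward, skipping predicted genes that lack a standard symbol, up to 10 members by size of difference from the acute phase, NF-kappaB, cytokine, receptor and STAT3 lists and up to 4 from the others, 26 genes always named, and the 6 smallest p-values of the vehicle slope; others are named where a count or a panel needs them. Alternatives tried were all probe sets averaged, no filter, quantile normalization, median centring, the replicate range as a term or within each range, a robust variance prior, a 1.5-fold limit and leaving out each array.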

Additional observations from a re-analysis of the deposited data

Results flagged for a closer look

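1 value stood apart from its group. Bcl3 in the hypoxic liver replicate 3 was at 10.04, and its gap to the next array was 0.594 of the range over the 8 hypoxic livers, above the critical value of 0.526 for 8 arrays. In all, 52 groups were checked in this way, and chance flags about 1 group in 20. No gene was called for a difference of the hypoxia change between replicates 1 to 4 and 5 to 8 (0 of 12735 by limma, 1272 at an unadjusted p under 0.05).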

How the results depend on the processing

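The 67 divided genes (54 upward and 13 downward) became 191 with a 1.5-fold limit, 110 within replicates 1 to 4 and 104 within replicates 5 to 8, where fewer arrays must not overlap, and 55 to 101 when single hypoxic arrays were left out (101 without replicate 4). The 1413 genes called between hypoxic and vehicle livers became 2668 with the replicate range as a term, 2385 with the replicate block, which changed no call of the single genes recomputed, and 759 within replicates 1 to 4, and ranged over 1071 to 1562 when single arrays were left out. The 11 genes of the vehicle slope became 0 with the replicate range as a term or quantile normalization, 412 after median centring, 45 with a robust prior, 7 without the 2 arrays farthest from the median of Lcn2, and 0 to 1508 when single arrays were left out. The count was 59 without vehicle replicate 2, 1 without replicate 7 and 0 without replicates 6 or 8. The 10 correlations became 0 by Spearman rho, 0 without the farthest 2 and 1 with range means removed, by a permutation that is not exact. The 7 spleen calls became 0 with the replicate range as a term, 4 with all probe sets averaged, and 0 to 368 when single spleens were left out. Within replicates 1 to 4 the hypoxia change turned to -0.49 for Saa1 and -0.48 for Saa2, and spleen Nfkbiz turned to -0.0251 with probe sets averaged and ranged over -0.0329 to 0.266 when single spleens were left out. The causes were not tested where the construction does not give them. Another Lcn2 probe set could not be tried, since the array has 1. Of other comparisons of single genes with their alternatives, 1715 kept direction and side of the threshold, 151 lost the call, 21 gained it and 7 moved.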
